A study of Mus musculus with 8 samples.

Results

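Cytokine receptor chains measured in P14 CD8 T cells were examined for 10 genes, *Il2ra*, *Il2rb*, *Il2rg*, *Il7r*, *Il21r*, *Il12rb1*, *Il12rb2*, *Il18r1*, *Il18rap* and *Il6ra*. They were taken by symbol from the 24303 genes of the RNA-Seq table, and all 10 were found, each in 1 row. No measured value entered the choice of symbols by rule, although earlier results of these data were known. Their values are normalized counts, which are estimated read counts that the authors divided by a size factor for each library.

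The P14 cells are primary CD8 T cells from the spleens of T cell receptor transgenic mice on a C57BL/6 background, and their receptor recognizes the GP33 peptide of LCMV. In all 4 conditions naive P14 cells were activated for 2 days on plates coated with anti-CD3 and anti-CD28, and the culture medium held recombinant human IL-2 throughout and IL-15 after activation. Effector cells were collected on day 7, and the labels do not give their peptide schedule. Acute-2d cells received no GP33 and were kept in peptide-free medium from day 2 to day 19. Acute-7d cells were stimulated with GP33 again and again until day 7 and then rested without peptide until day 19. T_Dysf cells were stimulated with GP33 until day 19 and received TGFβ1 from day 7 on, so the longer peptide exposure and TGFβ1 cannot be told apart in these libraries. Each condition has 2 libraries, described as biological replicates, made from poly(A)-selected RNA of sorted cells. The model is a culture, and no host tissue or infection was present.

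Common gamma chain cytokines are IL-2, IL-4, IL-7, IL-9, IL-15 and IL-21, and their receptors share the chain encoded by *Il2rg*, which signals through JAK3. IL-2 and IL-15 also share the chain encoded by *Il2rb*, and the alpha chain encoded by *Il2ra* raises the affinity for IL-2. IL-7 maintains resting T cells, IL-21 sustains CD8 T cells during chronic infection, and IL-12 and IL-18 are inflammatory cytokines that act together to induce IFN-γ. IL-12 signals mainly through STAT4, IL-18 through MYD88 and IRAK kinases, and IL-6 through a complex of the *Il6ra* chain with gp130.

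Reads on genes were estimated at 19382147 to 24856224 a library. The estimate took the most frequent low value, between 0.863 and 1.12 normalized counts, as the worth of 1 read. Of the 10 chains, 9 averaged between 2418 (*Il12rb1*) and 27472 (*Il2rb*) normalized counts, while *Il6ra* averaged 44.0. Summed T cell identity markers ran from 124070 to 131706 normalized counts in T_Dysf and from 63064 to 79156 in the other 6 libraries. Of these 7 markers 5 were higher in both T_Dysf libraries than elsewhere, *Trac* overlapped, and *Cd2* was lower, with 3439 and 3478 in T_Dysf and 6566 to 8821 elsewhere. *Cd4* and *Cd40lg* were at most 13.0 in any library, while *Foxp3* reached 49.5 in Acute-7d replicate 1. The 5 myeloid markers summed to between 332.8 and 363.6 in T_Dysf and to between 262.6 and 648.1 elsewhere. The 3 dendritic cell markers in the table summed to between 319.4 and 423.7 in T_Dysf and to between 114.4 and 567.5 elsewhere. B cell markers summed to at most 38.1 and erythroid markers to at most 42.6. The 3 mast cell and basophil markers summed to between 1521 and 1851 in T_Dysf and to at most 482.7 elsewhere, through *Kit*, since *Cpa3* and *Mcpt8* in T_Dysf lay within the range of the other libraries. The 3 NK cell markers summed to between 1169 and 1656 in T_Dysf and to between 374.2 and 1671 elsewhere. Of these *Fcer1g* ran from 923.6 to 1111 in T_Dysf and up to 181.8 elsewhere, *Ncr1* was lowest in T_Dysf (2.59 and 1.78, against at least 8.03), and *Klrb1c* overlapped. The part of other cell types in the receptor results was not tested, and in bulk RNA fewer cells with a transcript and less transcript per cell cannot be told apart. Both Effector libraries and Acute-7d replicate 1 carry the prefix RESUB in their names, whose meaning is not given, and the other 5 libraries do not.

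The DNA before the start of 4 chains with changed transcript levels is shown because *Il18r1* and *Il18rap* lie side by side and fell together, while *Il7r* fell and *Il21r* rose against both rested conditions. The sequences are from RefSeq on GRCm38.p6, run 5′ to 3′ on the strand of the gene up to the base before the RefSeq start, and leave out bases that GENCODE vM21 places in an exon. Capitals mark matches to 4 motifs searched on both strands, TGTTTAC (FOXO), TTCNNNGAA (STAT), TGTGGT (RUNX) and AGGAAGT (ETS).
Il18r1, chr1:40465416-40465551, plus strand: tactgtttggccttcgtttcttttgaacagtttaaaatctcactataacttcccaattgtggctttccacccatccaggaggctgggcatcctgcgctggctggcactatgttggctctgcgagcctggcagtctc
Il18rap, chr1:40515112-40515361, plus strand: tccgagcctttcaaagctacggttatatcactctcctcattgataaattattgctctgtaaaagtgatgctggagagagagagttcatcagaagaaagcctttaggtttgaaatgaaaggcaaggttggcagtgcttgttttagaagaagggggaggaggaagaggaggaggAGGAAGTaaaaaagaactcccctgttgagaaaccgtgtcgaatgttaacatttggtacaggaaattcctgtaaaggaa
Il7r, chr15:9529877-9530040, minus strand: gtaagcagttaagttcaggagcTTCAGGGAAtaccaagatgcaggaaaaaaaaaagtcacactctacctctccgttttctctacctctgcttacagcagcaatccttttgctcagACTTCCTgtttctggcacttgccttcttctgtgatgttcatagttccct
Il21r, chr7:125603179-125603428, plus strand: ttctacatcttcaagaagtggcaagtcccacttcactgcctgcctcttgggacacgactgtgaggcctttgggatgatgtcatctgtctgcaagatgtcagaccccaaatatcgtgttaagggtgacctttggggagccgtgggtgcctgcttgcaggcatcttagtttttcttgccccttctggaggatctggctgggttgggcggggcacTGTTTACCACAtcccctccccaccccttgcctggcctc

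The *Il18r1* stretch is the whole 136 bases between the end of *Il1rl1* and the start of *Il18r1*, and none of the 4 motifs was found there or in the full 250 bases before the start. The *Il18rap* window held 1 ETS match, 78 to 72 bases before the start. The *Il7r* stretch lies in an intron of the longer GENCODE gene model, and held a STAT match 142 to 134 bases and an ETS match 49 to 43 bases before the RefSeq start. The *Il21r* window held a FOXO match 38 to 32 bases before the start, which overlaps a RUNX match on the other strand. Windows were listed for 8 of the 10 chains, all but *Il2rb* and *Il12rb1*. Of these 8 windows of 250 bases, 1 held the FOXO motif, 2 the STAT motif, 2 the RUNX motif and 4 the ETS motif. Among 32851 windows of the same length, 3.17% held the FOXO motif, 7.02% the STAT motif, 14% the RUNX motif and 7.69% the ETS motif. A match describes the letters only and is not a measured site.

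How the 10 chains differed between T_Dysf and the other conditions was tested on log2(normalized count + 1) with limma (moderated test, Benjamini-Hochberg adjusted p over all 24303 genes). A gene passed at an adjusted p under 0.05, and a DEG also had a fold change of at least 2. Fold changes are on that log2 scale and are given ± SE, from 2 libraries a condition and 4 residual degrees of freedom.

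Against Acute-7d, T_Dysf had lower *Il18r1*, *Il18rap*, *Il6ra* and *Il7r* and higher *Il21r* and *Il2rb*, while *Il2ra*, *Il2rg*, *Il12rb1* and *Il12rb2* did not pass. These 6 of 10 chains compare with 9.21% of all genes that passed, 4.79% higher and 4.42% lower. All chains but *Il6ra* had a mean above at least 91.8% of all genes. Shares over all genes, here and in the other comparisons, include many genes of low level and are not matched to the chains. By the DEG rule 3 chains were called, *Il18r1*, *Il18rap* and *Il6ra*, all lower, against 5.57% of all genes. The median log2 fold change of the 10 chains was 0.19, beside 0.00 over all genes and 0.02 over the 12028 genes with a mean of at least 50. With only those 12028 genes fitted, which leaves out *Il6ra*, 2 chains and 1477 genes were called. With a term for the RESUB prefix 1 chain was called (*Il21r*). Leaving out either Acute-7d library left 1 chain called, and leaving out T_Dysf replicate 1 left none called and none passing. Without that library the log2 fold changes were -1.40 (*Il18r1*), -1.56 (*Il18rap*) and -3.68 (*Il6ra*).

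Against Acute-2d, *Il18r1*, *Il18rap*, *Il6ra* and *Il7r* were lower in T_Dysf and *Il21r* and *Il2rb* higher. The background was 11.9% of all genes, 5.85% higher and 6.01% lower. The 4 DEGs were *Il18r1*, *Il6ra*, *Il21r* and *Il2rb*, against 7.35% of all genes, and *Il18rap* lay just under the fold limit. Against Effector, 7 chains passed, with *Il18r1*, *Il18rap*, *Il6ra* and *Il2ra* lower in T_Dysf and *Il21r*, *Il7r* and *Il2rg* higher, against 15.6% of all genes, 8.14% higher and 7.44% lower. The 4 that were lower were also the DEGs, against 9.22% of all genes. These 3 comparisons share the T_Dysf libraries, so they are not independent of each other. Both Effector libraries carry the RESUB prefix and the T_Dysf libraries do not, so prefix and condition cannot be told apart against Effector. Leaving out T_Dysf replicate 1 left no chain called or passing in either comparison. Against Acute-2d, 1 chain was called without Acute-2d replicate 1 or T_Dysf replicate 2, and 2 without Acute-2d replicate 2. A fit of the 2 conditions alone called 2 chains against Acute-2d and none against Effector, and with the RESUB term 3 were called against Acute-2d and none against Effector.

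**Figure D1:**
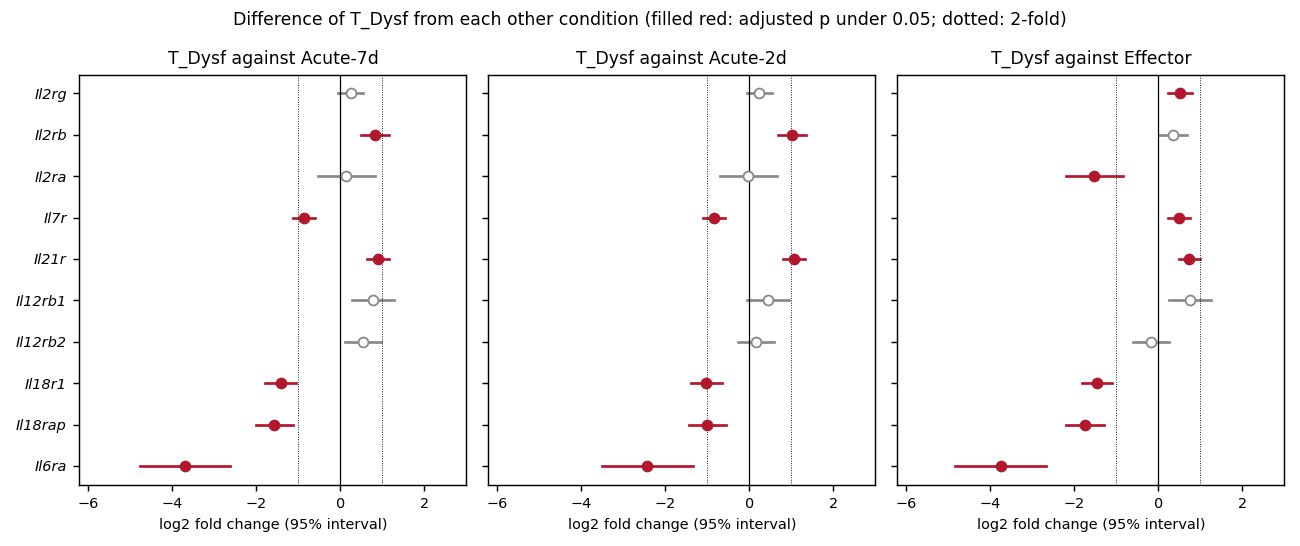
Log2 fold change (horizontal axis) of the 10 receptor chains in T_Dysf set against each other condition, with 95% intervals from limma's fit of all 8 libraries. Filled red points passed an adjusted p of 0.05, and dotted lines mark a fold change of 2. Il18r1, Il18rap and Il6ra lie to the left in all 3 panels and Il21r to the right, while Il7r changes side between the rested conditions and Effector.

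The shared gamma chain, *Il2rg* (chrX:101264378-101268255, minus strand), had 9957 and 12020.2 normalized counts in Effector, 13944 and 12704 in Acute-2d, 13077 and 13425.5 in Acute-7d, and 15718 and 15652 in T_Dysf. Both T_Dysf libraries lay above the other 6, but by little. The log2 difference was 0.24 ± 0.11 against Acute-7d (adjusted p = 0.261) and 0.24 ± 0.11 against Acute-2d (0.263), with intervals from -0.05 to 0.54 and from -0.06 to 0.53. Against Effector it was 0.52 ± 0.11 (adjusted p = 0.0438), a pass that was lost when any one of 7 libraries, all but Effector replicate 2, was left out. Of its exonic bases, 43.6% are shared with *Gm20489* on the same strand, a gene not listed in the table, and reads on the shared bases cannot be assigned to 1 of the pair.

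The beta chain of the IL-2 and IL-15 receptors, *Il2rb* (chr15:78479256-78495271, minus strand), was the most abundant of the 10, with a mean above 99.7% of all 24303 genes. It had 30805.5 and 29314 normalized counts in Effector, 17900 and 20556 in Acute-2d, 22893 and 20906 in Acute-7d, and 36512 and 40886 in T_Dysf. The order was T_Dysf, Effector, Acute-7d, Acute-2d with no overlap of libraries, although the neighbours T_Dysf and Effector (0.36 ± 0.13, adjusted p = 0.132), Effector and Acute-7d (0.46 ± 0.13, 0.0812) and Acute-7d and Acute-2d (0.19 ± 0.13, 0.845) did not differ by the test. T_Dysf exceeded Acute-7d by 0.82 ± 0.13 (1.77-fold, adjusted p = 0.028) and Acute-2d by 1.01 ± 0.13 (2.01-fold, 0.0136), and Effector exceeded Acute-2d by 0.65 ± 0.13 (0.0361). The last of these was kept in 3 of 15 alternative fits and lost whenever any one library was left out. The pass of T_Dysf against Acute-2d was kept in 11 of 15, and that against Acute-7d was lost in 9 of 15, with log2 differences between 0.74 and 0.90 in all of them.

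The alpha chain of the IL-2 receptor, *Il2ra* (chr2:11642807-11693193, plus strand), encodes CD25, a chain induced by antigen and IL-2. It stood apart in Effector, with 6400.2 and 11199.7 normalized counts. The 6 libraries of day 19 lay together, with 3107 and 2901 in Acute-2d, 2637 and 2728 in Acute-7d, and 2945 and 2976 in T_Dysf. T_Dysf cells, the only ones stimulated with peptide until day 19, differed from Acute-7d by 0.14 ± 0.26 (adjusted p = 0.817, interval from -0.54 to 0.82) and overlapped with Acute-2d. Effector exceeded T_Dysf by 2.86-fold (log2 fold change of T_Dysf -1.52 ± 0.26, adjusted p = 0.0253), Acute-7d by 3.16-fold (0.0246) and Acute-2d by 2.82-fold (0.0281). The 2 Effector libraries were themselves far apart (SD 3394), and each of these 3 differences passed in 7 of 15 alternative fits.

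The IL-7 receptor alpha chain, *Il7r* (chr15:9505788-9530176, minus strand), encodes CD127, a marker of memory T cells and their precursors. It had 2636 and 2314 normalized counts in Effector, 5885 and 6546 in Acute-2d, 5993 and 6575 in Acute-7d, and 3374 and 3560.5 in T_Dysf. The 4 libraries of the rested conditions overlapped each other and lay above all others, and T_Dysf lay between them and Effector. T_Dysf was lower than Acute-7d by 1.81-fold (-0.86 ± 0.10, adjusted p = 0.0139) and than Acute-2d by 1.79-fold (-0.84 ± 0.10, 0.0116), which passed in 11 and 14 of 15 alternative fits. It was higher than Effector by 1.40-fold (0.49 ± 0.10, adjusted p = 0.0366), a pass kept in 4 of 15 alternative fits. Effector was lower than Acute-7d by 2.54-fold (-1.35 ± 0.10, adjusted p = 0.00822) and than Acute-2d by 2.51-fold (-1.33 ± 0.10, 0.00752), and these differences passed in 14 and 13 of 15 alternative fits.

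The IL-21 receptor, *Il21r* (chr7:125603429-125633570, plus strand), was the chain with the clearest higher level in T_Dysf. It had 2838 and 2584 normalized counts in Effector, 2180.0 and 2139 in Acute-2d, 2664 and 2241 in Acute-7d, and 4647 and 4414 in T_Dysf. Both T_Dysf libraries were above the other 6, which lay close together. The difference was 0.89 ± 0.10 against Acute-7d (1.85-fold, adjusted p = 0.0129), 1.07 ± 0.10 against Acute-2d (2.10-fold, 0.00675) and 0.74 ± 0.10 against Effector (1.67-fold, 0.0143). These passed in 13, 14 and 11 of 15 alternative fits, and each was lost without T_Dysf replicate 1. The 3 other conditions did not differ from each other by the test.

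**Figure D2:**
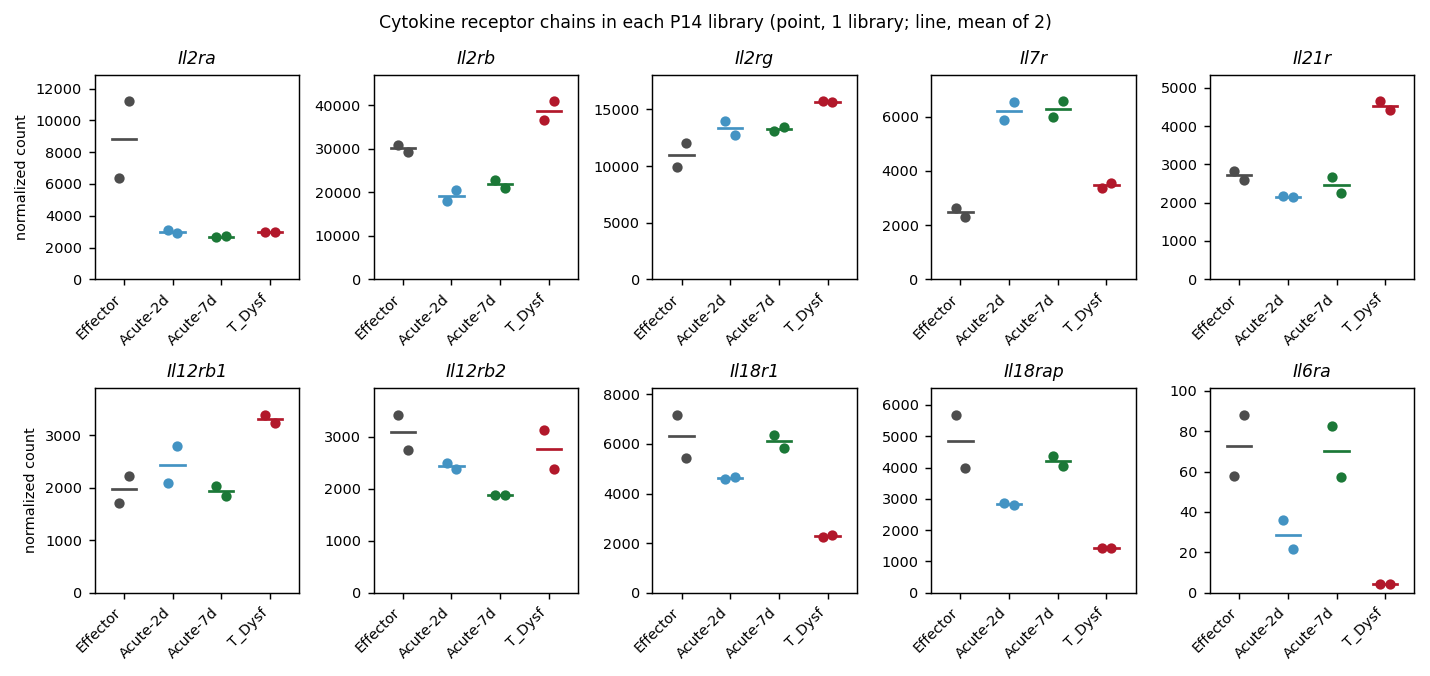
Normalized count (vertical axis, from 0) of the 10 receptor chains in each library, by condition. Points are single libraries and lines are means of 2. Both T_Dysf libraries lie above the other 6 for Il2rb, Il2rg, Il21r and Il12rb1 and below them for Il18r1, Il18rap and Il6ra. The differences of Il2rg and Il12rb1 from Acute-7d and Acute-2d did not pass, and such separation was not counted over all genes. Il2ra is high in Effector only, and Il7r is high in the 2 rested conditions.

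The IL-12 receptor has the chain *Il12rb1* (chr8:70808449-70821424, plus strand), shared with the IL-23 receptor, and the signalling chain *Il12rb2* (chr6:67291318-67376188, minus strand). *Il12rb1* had 1712 and 2226 normalized counts in Effector, 2083 and 2807 in Acute-2d, 2042 and 1848 in Acute-7d, and 3399 and 3230.2 in T_Dysf. The T_Dysf libraries were the highest, but the difference of 0.77 ± 0.19 from Acute-7d (adjusted p = 0.0814) and those from Acute-2d (0.45 ± 0.19, 0.216) and Effector (0.76 ± 0.19, 0.0629) did not pass. With genes kept only where the highest library reached 50, the filter of the study, *Il12rb1* passed against Acute-7d (adjusted p = 0.0224) and Effector (0.0158). *Il12rb2* had 3429 and 2752 in Effector, 2493 and 2385 in Acute-2d, 1877 and 1878 in Acute-7d, and 3139.6 and 2389.6 in T_Dysf. T_Dysf overlapped with Effector and Acute-2d, and its difference of 0.54 ± 0.17 from Acute-7d did not pass (adjusted p = 0.122, interval from 0.11 to 0.97), although it passed under that filter (0.0476). The exons of *Il12rb2* share 40.0% of their bases with *Serbp1* on the opposite strand. *Serbp1* averaged 18153 normalized counts, and a strand setting is not given in the sources used here, so the level of *Il12rb2* is uncertain.

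The IL-18 receptor chains fell together in T_Dysf. *Il18r1* (chr1:40465552-40500854) encodes the chain that binds IL-18, and *Il18rap* (chr1:40515362-40551705) the accessory chain needed for signalling. Both lie on the plus strand and are 14507 bases apart. *Il18r1* had 7189 and 5420.3 normalized counts in Effector, 4591 and 4651 in Acute-2d, 6376 and 5827 in Acute-7d, and 2245 and 2309 in T_Dysf. *Il18rap* had 5695 and 3997 in Effector, 2876 and 2812 in Acute-2d, 4382 and 4062 in Acute-7d, and 1423 and 1429.6 in T_Dysf. The T_Dysf libraries were below the other 6 for both chains, and Acute-2d came next in order.

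*Il18r1* was lower in T_Dysf by 2.68-fold against Acute-7d (-1.42 ± 0.14, adjusted p = 0.0101), by 2.03-fold against Acute-2d (-1.02 ± 0.14, 0.0169) and by 2.74-fold against Effector (-1.45 ± 0.14, 0.00781). *Il18rap* was lower by 2.96-fold (-1.56 ± 0.17, adjusted p = 0.0123), 1.99-fold (-0.995 ± 0.17, 0.0281) and 3.34-fold (-1.74 ± 0.17, 0.00785). Against Acute-7d these passed in 12 and 11 of 15 alternative fits, against Acute-2d in 11 and 8, and against Effector in 12 each. The smallest decreases over the alternative fits against Acute-7d were -1.36 for *Il18r1* and -1.51 for *Il18rap*. These are the same estimates as the differences of T_Dysf from Acute-7d replicate 2, the Acute-7d library without the RESUB prefix, and no separate check. All T_Dysf and Acute-2d libraries lack the prefix, so their differences of -1.02 and -0.995 are those of the main fit. Effector did not differ from Acute-7d for either chain, and exceeded Acute-2d for *Il18rap* by 0.75 ± 0.17 (adjusted p = 0.0491), which passed in 5 of 15 alternative fits.

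The neighbours of the pair on chromosome 1 are the IL-1 receptor family genes *Il1r2*, *Il1r1*, *Il1rl2* and *Il1rl1*, and they had no mean above 13.2 normalized counts in the day 19 conditions. *Il1rl1*, which ends 136 bases before *Il18r1*, had 63.1 and 305.0 in Effector, at most 2.23 in the acute conditions and 12.1 and 8.90 in T_Dysf. *Il1rl2* averaged 90.1 ± 21.5 (SD, n = 2) in Effector and 4.83 ± 0.723 in T_Dysf.

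The IL-6 receptor alpha chain, *Il6ra* (chr3:89864059-89913196, minus strand), was the least abundant chain and the one with the widest range. It had 57.6 and 88.3 normalized counts in Effector, 35.8 and 21.5 in Acute-2d, 82.6 and 57.6 in Acute-7d, and 4.32 and 4.45 in T_Dysf. The T_Dysf values come from about 5 reads in each library, just above the floor of 3 reads, so their precision is limited by counting. The log2 fold change of T_Dysf was -3.70 ± 0.41 against Acute-7d (adjusted p = 0.0129), -2.42 ± 0.41 against Acute-2d (0.028) and -3.75 ± 0.41 against Effector (0.00982). With a pseudocount of 10 the decrease against Acute-7d was -2.46 and that against Acute-2d was -1.40, and the latter no longer passed. The pass against Acute-2d was kept in 4 of 14 alternative fits, that against Acute-7d in 9 and that against Effector in 11. An antisense gene, *Gm42809*, shares 2.80% of the exonic bases.

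Ratios of chains that pair in a receptor were taken within each library, per kb of exon, so that they do not depend on the scaling of libraries. *Il2rb* per *Il2rg* was 1.21 and 0.950 in Effector, 0.500 and 0.630 in Acute-2d, 0.682 and 0.607 in Acute-7d, and 0.905 and 1.02 in T_Dysf. *Il2ra* per *Il2rb* was lowest in T_Dysf, with 0.0664 and 0.0599, against 0.0948 and 0.107 (Acute-7d), 0.143 and 0.116 (Acute-2d) and 0.171 and 0.314 (Effector), with no overlap between T_Dysf and any other library. *Il7r* per *Il2rg*, the chains of the IL-7 receptor, was 0.101 and 0.107 in T_Dysf and 0.125 and 0.0908 in Effector, and between 0.199 and 0.243 in the 4 rested libraries. T_Dysf overlapped with Effector in this ratio and not with the rested conditions.

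*Il18rap* per *Il18r1* stayed between 0.596 and 0.781 in all 8 libraries while each chain varied several-fold, with 0.625 and 0.610 in T_Dysf, 0.617 and 0.596 in Acute-2d, 0.677 and 0.687 in Acute-7d, and 0.781 and 0.727 in Effector. *Il21r* per *Il2rg* was 0.194 and 0.185 in T_Dysf, 0.187 and 0.141 in Effector, and between 0.103 and 0.134 in the rested libraries. *Il12rb2* per *Il12rb1* averaged 0.630 ± 0.0984 in T_Dysf (SD, n = 2), beside 0.733 ± 0.0517 (Acute-7d), 0.775 ± 0.186 (Acute-2d) and 1.23 ± 0.410 (Effector), and the libraries of the day 19 conditions overlapped. On the per kb scale the order of levels in T_Dysf was *Il2rg* (9392), *Il2rb* (9027), *Il21r* (1782), *Il12rb1* (1154), *Il7r* (979.5), *Il12rb2* (728.7), *Il2ra* (568.3), *Il18r1* (472.7), *Il18rap* (291.8) and *Il6ra* (0.507). In Acute-7d the chains after *Il2rg* (7935) and *Il2rb* (5108) were *Il7r* (1775), *Il18r1* (1267), *Il21r* (964.8) and *Il18rap* (863.6).

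**Figure D3:**
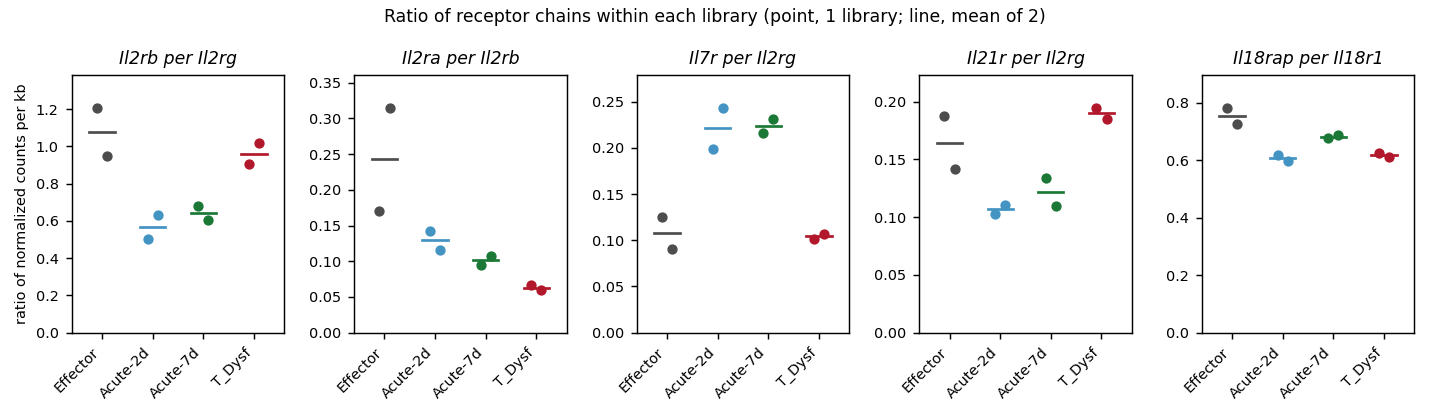
Ratio of normalized counts per kb of exon (vertical axis, from 0) for 5 pairs of receptor chains in each library, by condition. Points are single libraries and lines are means of 2. Il7r per Il2rg is lower in Effector and T_Dysf than in the rested conditions, Il2rb per Il2rg is higher in them, Il2ra per Il2rb is lowest in T_Dysf, and Il18rap per Il18r1 varies least.

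The genes whose profile over the 8 libraries was most like that of each chain were found among the 12028 genes with a mean of at least 50 normalized counts, as the root-mean-square (RMS) difference of centred log2 values. For *Il7r* the nearest was *Foxo1* (RMS 0.10, against 0.58 for the spread of *Il7r* itself), a transcription factor known to act on *Il7r*, and then *Ankzf1* (0.11). Mean normalized counts of *Foxo1* were 4263 in Acute-2d and 3844 in Acute-7d, but 2322 in T_Dysf and 1734 in Effector. It was lower in T_Dysf than in Acute-7d by -0.73 ± 0.05 (adjusted p = 0.00479) and in Acute-2d by -0.88 ± 0.05 (0.00238), and higher than in Effector by 0.42 ± 0.05 (0.0112). Both decreases passed in 15 of 15 alternative fits, the one without T_Dysf replicate 1 included. For *Il18r1* and *Il18rap* the nearest gene was the other of the pair (RMS 0.13), ahead of *Usp36* (0.14) and *Psen2* (0.17).

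**Figure D4:**
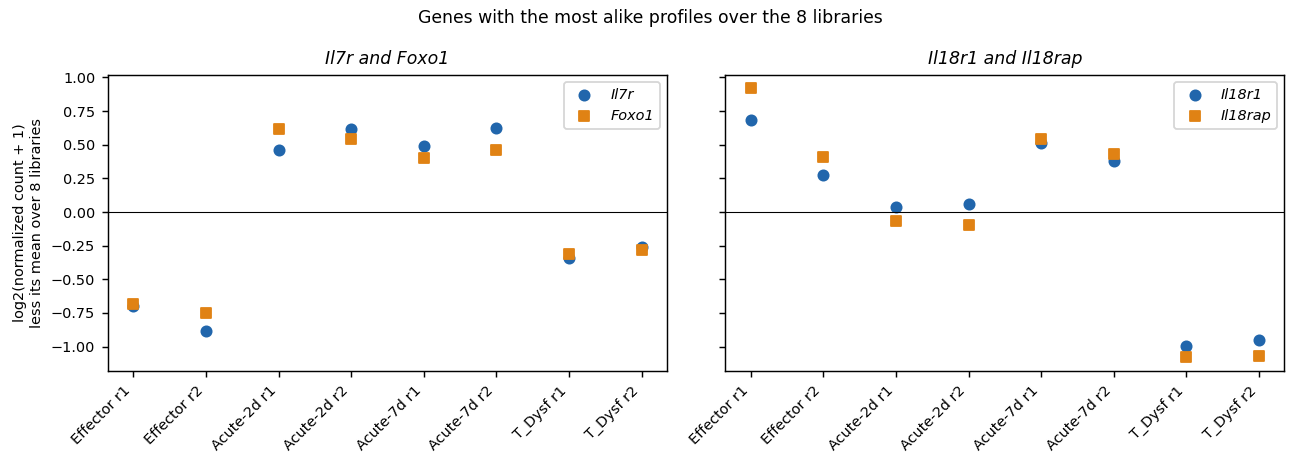
Centred log2(normalized count + 1) (vertical axis) in each of the 8 libraries (horizontal axis) for Il7r with Foxo1 and for Il18r1 with Il18rap. Il7r and Foxo1 are below their means in Effector and T_Dysf and above them in both rested conditions, while the IL-18 receptor chains are furthest below their means in T_Dysf.

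The other chains had as nearest genes *Pfas* and *Wdr76* for *Il2ra*, *Iscu* and *Spryd3* for *Il2rb*, *Rnf25* and *Derl1* for *Il2rg*, *Dock8* and *Pkp3* for *Il21r*, *Fam174b* and *Map4k1* for *Il12rb1*, *Ndufb1-ps* and *Mrpl48* for *Il12rb2*, and *Sidt1* and *Myb* for *Il6ra*. Their RMS differences ran from 0.04 to 0.16, except for 0.41 and 0.42 at *Il6ra*. Among the 10 chains themselves the next most alike after the IL-18 receptor pair were *Il2rb* and *Il21r* (0.17). All these likenesses rest on 4 conditions, share the same libraries and are descriptions.

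The rested conditions, last stimulated on day 2 or day 7, showed few differences. No chain passed between Acute-7d and Acute-2d by limma's moderated test, where 0.169% of all genes passed. At an unadjusted p under 0.05 there were 3 chains, all higher in Acute-7d, against 7.31% of all genes: *Il18r1* (0.40 ± 0.14), *Il18rap* (0.57 ± 0.17) and *Il6ra* (1.28 ± 0.41). The IL-18 receptor pair was 1.32-fold and 1.48-fold higher in Acute-7d. For these chains the libraries of the 2 conditions did not overlap, but neither did they for *Il2ra*, *Il2rb*, *Il21r*, *Il12rb1* and *Il12rb2*. Such separation was not counted over all genes and does not set the 3 chains apart.

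Between Effector and the rested conditions 2 chains passed against Acute-7d and 4 against Acute-2d. Against Acute-7d only *Il2ra*, higher in Effector, and *Il7r*, lower, passed, and both were DEGs, while 14.9% of all genes passed and 8.06% were DEGs. Against Acute-2d *Il2ra*, *Il2rb* and *Il18rap* were higher and *Il7r* lower, against 15.7% of all genes, and the DEGs were *Il2ra* and *Il7r*, against 8.78%. The contrast with Acute-2d sets 2 RESUB libraries against 2 without the prefix, so the prefix and the condition cannot be told apart in it. The contrast with Acute-7d sets 2 RESUB libraries against 1 with the prefix and 1 without. With the RESUB term *Il7r* was called against Acute-7d and no chain against Acute-2d, and the 2 conditions fitted alone called none in either. Leaving out any Acute-2d, Acute-7d or T_Dysf library left 1 chain called in each contrast, while against Acute-2d 3 were called without Effector replicate 2. Over all 4 conditions together, 7 chains differed by limma's F-test with Benjamini-Hochberg adjustment, all but *Il2rg*, *Il12rb1* and *Il12rb2*, against 20.2% of all genes. Leaving out either T_Dysf library left 1 chain, and the RESUB term left 2. Equal 75th percentiles gave 8 chains, beside 5052 of all genes, where the main fit called 4904. Either filter on low values gave 9 chains. All genes called were then 6289 of 12028 (mean of at least 50) and 6708 (highest library of at least 50), so 20.2% is not their background.

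A further 4 receptor chains were listed, all in the table. They were *Il4ra*, *Il9r* and *Il15ra*, for common gamma chain cytokines, and *Crlf2* of the TSLP receptor, whose ligand is not one of these. *Crlf2* was a higher DEG and *Il4ra* a lower DEG in T_Dysf against both rested conditions, and *Il9r* was called lower against Acute-2d and Effector. *Il4ra*, the IL-4 receptor alpha chain, averaged 3153 ± 77.0 normalized counts in T_Dysf against 9167 ± 1133 (Acute-7d) and 11090.0 ± 436.8 (Acute-2d) (-1.53 ± 0.11, adjusted p = 0.00485, and -1.81 ± 0.11, 0.0026), and both decreases passed in 15 of 15 alternative fits. It was also low in Effector (4100.4 ± 327.2), so that T_Dysf and Effector did not differ by the test (0.0852). *Crlf2*, which pairs with *Il7r* in the TSLP receptor, averaged 2727 ± 218.3 in T_Dysf, beside 1156 ± 134.4 (Acute-7d), 1062 ± 139.9 (Acute-2d) and 1108 ± 285.4 (Effector), and was a DEG in all 3 comparisons (1.24 ± 0.21, adjusted p = 0.0349, against Acute-7d). These passed in 6, 7 and 10 of 15 alternative fits (Acute-7d, Acute-2d, Effector) and not without T_Dysf replicate 1. *Il15ra* did not pass in any comparison, and *Il9r* averaged at most 5.66 normalized counts. In T_Dysf *Il9r* had 0.863 and 0, under the floor of 3 reads, so no fold is given for its calls (adjusted p = 0.0374 against Acute-2d and 0.0305 against Effector), which held in 3 and 2 of 13 alternative fits. *Il4ra* lies 23954 bases before *Il21r* on chromosome 7, and the neighbours moved in opposite directions in T_Dysf against the rested conditions.

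Of 14 other inflammatory and regulatory receptor chains, 13 were in the table, and none was higher in T_Dysf in any of its 3 comparisons. Against Acute-7d 3 were lower, *Ifngr1*, *Il10ra* and *Il10rb*, and against Acute-2d and Effector 3 each, *Ifngr1*, *Il10ra* and *Il6st*. Over all genes 4.42%, 6.01% and 7.44% were lower in these comparisons. *Ifngr1*, which binds IFN-γ, averaged 6153 ± 213.6 in T_Dysf and 14857 ± 153.4 in Acute-7d (-1.27 ± 0.08, adjusted p = 0.00416), which passed in 15 of 15 alternative fits. *Il10ra* averaged 1380 ± 126.1 and 2810.3 ± 451.4 (-1.02 ± 0.14, 0.0203), which passed in 9 of 15. *Il6st*, which encodes gp130, the signalling partner of *Il6ra*, averaged 403.8 ± 25.4 in T_Dysf, beside 710.3 ± 32.1 (Acute-7d), 1142 ± 86.3 (Acute-2d) and 1245 ± 311.3 (Effector). It differed from Acute-7d by -0.81 ± 0.18 (adjusted p = 0.063, under 0.05 in 6 of 15 alternative fits), from Acute-2d by -1.50 ± 0.18 (0.0124) and from Effector by -1.60 ± 0.18 (0.0104). For both partners of the IL-6 receptor the T_Dysf mean was the lowest of the 4. *Ifngr2* was a DEG only between Effector (35.0 ± 31.4) and Acute-2d (309.0 ± 36.3), kept in 7 of 15 alternative fits.

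Transcripts of the ligands were scarce. Of 11 ligands and inhibitors listed, 8 were in the table, and *Il2*, *Il7*, *Il21*, *Il6*, *Il12a* and *Il15* were below 15 normalized counts in each library, with *Il21* listed at 0 in all 8. *Il18* had 46.6 and 30.1 in Effector and 7.77 and 5.34 in T_Dysf, the one passing difference in this group (-2.37 ± 0.43, adjusted p = 0.0286), kept in 3 of 13 alternative fits, and was named after its values were seen. *Il18bp*, the soluble inhibitor of IL-18, ran from 62.1 to 257.0 and did not pass.

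Of 15 signal transducers listed, 1 was higher in T_Dysf than in Acute-7d (*Stat3*, 0.48 ± 0.06, adjusted p = 0.016), 2 than in Acute-2d (*Stat3* and *Irak4*) and 4 than in Effector (*Stat3*, *Irak4*, *Irak2* and *Jak1*), and none was lower. Over all genes 4.79%, 5.85% and 8.14% were higher in these comparisons, so the first of these counts is near the background. *Irak4*, a kinase of the IL-18 pathway, averaged 1354 normalized counts in T_Dysf, beside 1017 (Acute-7d), 898.1 (Acute-2d) and 599.0 (Effector), and was a DEG against Effector (1.18 ± 0.12, adjusted p = 0.00883), kept in 13 of 15 alternative fits. Its T_Dysf mean was the highest of the 4 conditions, while those of the IL-18 receptor chains were the lowest. *Stat3*, which IL-21 and IL-6 activate, averaged 6834 in T_Dysf and between 4563 and 5353 in the other conditions. *Jak3* and *Stat5b*, which act downstream of the gamma chain, did not pass in any T_Dysf comparison.

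Of 8 feedback and target genes of these receptors, 2 were lower in T_Dysf than in Acute-7d, 3 lower than in Acute-2d and 2 higher than in Effector, beside 4.42%, 6.01% and 8.14% of all genes in the same directions. *Pim1*, a kinase gene induced by STAT signals, averaged 6474 in T_Dysf and 18017 in Acute-7d (-1.45 ± 0.20, adjusted p = 0.0202). *Bcl2*, a survival gene maintained by IL-7, averaged 8411 in T_Dysf, 8630.0 in Effector and 14416 and 15506 in Acute-7d and Acute-2d (-0.78 ± 0.12, adjusted p = 0.0282, and -0.88 ± 0.12, 0.0167), with the rested conditions above the others as for *Il7r*. *Cish* and *Socs2*, inhibitors induced by STAT5, averaged 18675 and 3477 in T_Dysf and 5249 and 1034 in Effector (1.87 ± 0.33, 0.0268, and 1.75 ± 0.28, 0.0202). *Socs3* averaged 627.5 in T_Dysf and 2140.0 in Acute-2d, beside 464.2 in Effector, and was lower in T_Dysf than in Acute-2d (-1.73 ± 0.35, adjusted p = 0.0423). The *Pim1* pass was kept in 10 of 15 alternative fits, those of *Bcl2* in 6 and 11, that of *Cish* in 6, that of *Socs2* in 10 and that of *Socs3* in 7.

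Of 7 transcription factors known to act on receptor genes, *Foxo1* alone passed between T_Dysf and the rested conditions, a count near the 9.21% and 11.9% of all genes that passed. *Foxo1* and *Foxo3* were higher in T_Dysf than in Effector. *Foxo3* averaged 3674 in T_Dysf and 3745 in Acute-7d, beside 1480.2 in Effector, so that it did not have the lower level in T_Dysf that *Foxo1* and *Il7r* had. *Tbx21*, which encodes T-bet, averaged 2293 in Effector and between 917.6 and 1143 at day 19, and passed only between Effector and Acute-2d (1.36 ± 0.29, adjusted p = 0.0409), kept in 5 of 15 alternative fits.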

How the data were processed

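The deposited table of 24303 genes and 8 libraries was used whole. Reads had been aligned to mm10 with STAR and quantified to RefSeq transcripts in Partek Flow, and the deposited values are a signal that the authors made by dividing estimated gene counts by DESeq2 median-ratio size factors. Of the values under 1000 reads, between 51.0% and 74.9% per library were whole multiples of what 1 read is worth (within 0.01 reads). Reads could therefore not be recovered, and the DESeq2 test of the study was not run.

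Genes were tested in R 4.3.3 with limma 3.58.1 (lmFit, eBayes with trend), two-sided, on log2(normalized count + 1), in 1 fit of 4 condition means. The procedure was also run on simulated data, in which only genes with a mean of at least 50 were changed, each by over 2-fold. That run does not cover smaller changes or lower counts. With 2 libraries against 2, an exact permutation test of a single value cannot go below 0.333, so none was used. Each p-value sets a difference against the spread within conditions, pooled over the 4 conditions and moderated by a trend over all genes. It covers these libraries only. Exon lengths, positions and overlaps came from GENCODE vM21 and promoters from RefSeq for GRCm38.p6. Further steps used Python 3.11.15 with pandas 2.3.3, numpy 2.4.6 and, for plots, matplotlib 3.10.9.

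The members, gene lists, motifs and rules were chosen with earlier results of these data known. All 10 chains are named. From each list up to 4 genes are named, those called in at least 1 comparison with a mean of at least 50 and the largest changes, besides any gene that a result turns on. Alternatives were a pseudocount of 10, a minimum of 50 for the mean or for the highest library, equal 75th percentiles, fits of 2 conditions alone, a block for the replicate number, a term for RESUB, and leaving out each library.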

Additional observations from a re-analysis of the deposited data

How the results depend on the processing

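The 10 chains, 6 comparisons and 15 alternatives gave 894 log2 fold changes, since *Il6ra* had too low a mean for the filter on a mean of at least 50. Of these, 719 kept their direction and their side of an adjusted p of 0.05, 137 no longer passed, 17 newly passed and 21 changed sign. No fold change that had passed changed sign.

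With the RESUB term the chains called were 1 (T_Dysf against Acute-7d), 0 (T_Dysf against Effector), 1 (Effector against Acute-7d), 0 (Effector against Acute-2d) and 2 over all 4 conditions. All genes called were then 541, 386, 808, 350 and 1696, and 168 between Acute-7d and Acute-2d. With the 2 conditions fitted alone, 2 chains were called for T_Dysf against Acute-2d and 0 for T_Dysf against Effector, Effector against Acute-7d and Effector against Acute-2d. All genes called were 465, 155 and 235 for the last 3 and 147 for Acute-7d against Acute-2d. That last comparison called 4 genes with a pseudocount of 10, and 1 under either filter on low values. These 3 alternatives changed no count of called chains by over 1.5 times. The fits of 2 conditions have 2 residual degrees of freedom, and the causes of the other changes were not tested.

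The replicate numbers were not taken as pairs, since over 12028 genes the correlations of replicate differences ran from -0.199 to 0.197, and 2 of 6 were over 0.1. With the number as a block, 891 genes were called between T_Dysf and Acute-7d and 3088 over all conditions, and the chains called were 3 against Acute-7d, 3 against Acute-2d and 4 against Effector.

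Leaving out 1 library at a time gave these ranges. T_Dysf against Acute-7d called 0 to 3 chains and 422 to 1534 genes, T_Dysf against Acute-2d 0 to 4 and 656 to 1867, and T_Dysf against Effector 0 to 4 and 585 to 2484. Acute-7d against Acute-2d called 0 chains and 61 to 376 genes, Effector against Acute-7d 1 to 2 and 378 to 2156, and Effector against Acute-2d 1 to 3 and 553 to 2363. Over all conditions 1 to 7 chains and 1119 to 4663 genes were called. The 0 chains in each T_Dysf comparison came without T_Dysf replicate 1, the library in which 51.0% of low values were whole multiples of 1 read.

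Sign changes were all in differences that did not pass. For Effector against Acute-7d they were, with the RESUB term, -0.064 (*Il12rb1*), -0.031 (*Il18r1*) and -0.21 (*Il6ra*), and with equal 75th percentiles -0.084, -0.057 and -0.043. *Il2rg* between Acute-7d and Acute-2d became 0.013 with the RESUB term. Leaving out 1 library gave, for T_Dysf against Acute-2d, -0.070 to 0.029 for *Il2ra* and -0.029 to 0.36 for *Il12rb2*, and against Effector -0.36 to 0.031 for *Il12rb2*. Between Acute-7d and Acute-2d it gave -0.074 to 0.061 for *Il2rg* and -0.060 to 0.093 for *Il7r*. Between Effector and Acute-7d it gave -0.18 to 0.20 for *Il12rb1*, -0.17 to 0.24 for *Il18r1*, -0.078 to 0.43 for *Il18rap* and -0.26 to 0.35 for *Il6ra*. Equal 75th percentiles moved a library by at most 0.11 on the log2 scale. For genes outside the 10 chains, 25 passing differences were followed over the alternatives, and none changed sign. Many no longer passed without T_Dysf replicate 1. Leaving out either T_Dysf library leaves 1 library in that condition, and why these passes were lost was not tested. With 2 libraries a condition and about 5 reads of *Il6ra* in T_Dysf, depth and replication limit the smallest change that could be called.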
